A study of Mus musculus with 12 samples.

Results

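Knockdown of Anxa2 in BV2 cells, an immortalized mouse microglial line, was compared with a control shRNA in cells that had not undergone oxygen-glucose deprivation and reoxygenation (OGD/R, a culture model of ischemia and reperfusion). The comparison used 6 of the 12 RNA-seq libraries of the study, chosen by their titles. It set 3 shAnxa2-CTRL libraries against 3 shCtrl-CTRL libraries over 11626 of the 21834 genes of the deposited count table, those that reached 0.5 CPM (counts per 1000000 counts of a library) in at least 3 of the 12 libraries. Both lines were stable lines made by lentiviral transduction with a pLKO.1 vector and selected with puromycin, so the shCtrl cells also carried the vector and had been selected. The shAnxa2 cells carried 1 shRNA against Anxa2, and each shRNA was represented by 1 line, so that an effect of the knockdown and a difference between these particular lines cannot be told apart. The other 6 libraries, shCtrl-OGDR and shAnxa2-OGDR, came from the same lines after 4 h of deprivation and 12 h of reoxygenation by the labels (the study's methods give a longer time), and gave a second comparison of the same lines that shares no library with the first, although all 12 libraries entered the same model and the filter on low counts. The cell type tag of the labels follows the treatment, against the titles. It names both untreated groups wild type and both OGD/R groups Anxa2 knockdown, so the line was taken from the titles.

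Annexin A2 is a calcium-dependent phospholipid-binding protein of the cell cortex and plasma membrane. With its partner S100a10 it forms a complex that binds plasminogen and tissue plasminogen activator, and it links membranes to actin. NF-kB, the family of transcription factors in question in the study, drives cytokines, chemokines and its own inhibitors in activated microglia and macrophages.

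The 6 untreated libraries held 20402165 to 27288843 counts. Genes of the microglia and macrophage marker list were all detected, and their summed level was 2317 to 2471 CPM in shCtrl-CTRL and 2207 to 2302 CPM in shAnxa2-CTRL. Csf1r, the receptor that microglia need for survival, and Spi1, their lineage transcription factor, were abundant, whereas the homeostatic genes P2ry12 and Tmem119 lay at 2.22 and 4.83 CPM in shCtrl-CTRL. The astrocyte and neuron lists summed to at most 0.882 CPM in any untreated library, with Aqp4, Snap25, Syt1 and Nefl at 0 in all 12 libraries. Cd3e, Cd3g, Cd8a, Dcn, Lum and Mog were at 0 as well. The endothelial list was made up nearly wholly by Kdr, a VEGF receptor, at 166.7 CPM in shCtrl-CTRL and 118.3 CPM in shAnxa2-CTRL, and Pecam1 was at most 0.626 CPM in any untreated library.

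Before the results, it has to be stated how the 4 groups lay relative to each other. The 23 tested hypoxia targets summed to 1338 to 1433 CPM in shCtrl-CTRL and 2042 to 2136 CPM in shAnxa2-CTRL, against 2068 to 2372 CPM in shCtrl-OGDR and 1277 to 1317 CPM in shAnxa2-OGDR. The 25 DNA replication genes summed to 5021 to 5206 CPM in shCtrl-CTRL and 3321 to 3455 CPM in shAnxa2-CTRL, against 3151 to 3225 CPM in shCtrl-OGDR and 5094 to 5205 CPM in shAnxa2-OGDR. In these lists the libraries labelled shAnxa2-CTRL lay near those labelled shCtrl-OGDR, and the libraries labelled shAnxa2-OGDR lay near those labelled shCtrl-CTRL. Not all lists lay so. The NF-kB targets summed to 3832 to 3934 CPM in shAnxa2-CTRL and 3160 to 3228 CPM in shCtrl-OGDR. They summed to 3238 to 3422 CPM in shAnxa2-OGDR and 2229 to 2317 CPM in shCtrl-CTRL. Over all tested genes, the root mean square distance on the log2 CPM scale was 0.562 between shAnxa2-CTRL and shCtrl-CTRL, and 0.252 to 0.280 between replicates. It was 0.453 between shAnxa2-CTRL and shCtrl-OGDR, and 0.416 between shCtrl-CTRL and shAnxa2-OGDR, the smallest distance between groups. Between the untreated and OGD/R groups of 1 line it was 0.584 in shCtrl and 0.496 in shAnxa2. The OGD/R groups of the lines were 0.673 apart. Whether the treatment labels of both lines are as given was not tested. The results are therefore given as labelled. Most gene lists and many genes also have the line difference averaged over both treatments (6 shAnxa2 against 6 shCtrl libraries, from the same model). That value stays the same if the treatment labels of a whole line are exchanged, but not if those of single libraries are. This average was added after the data had been seen.

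**Figure D1:**
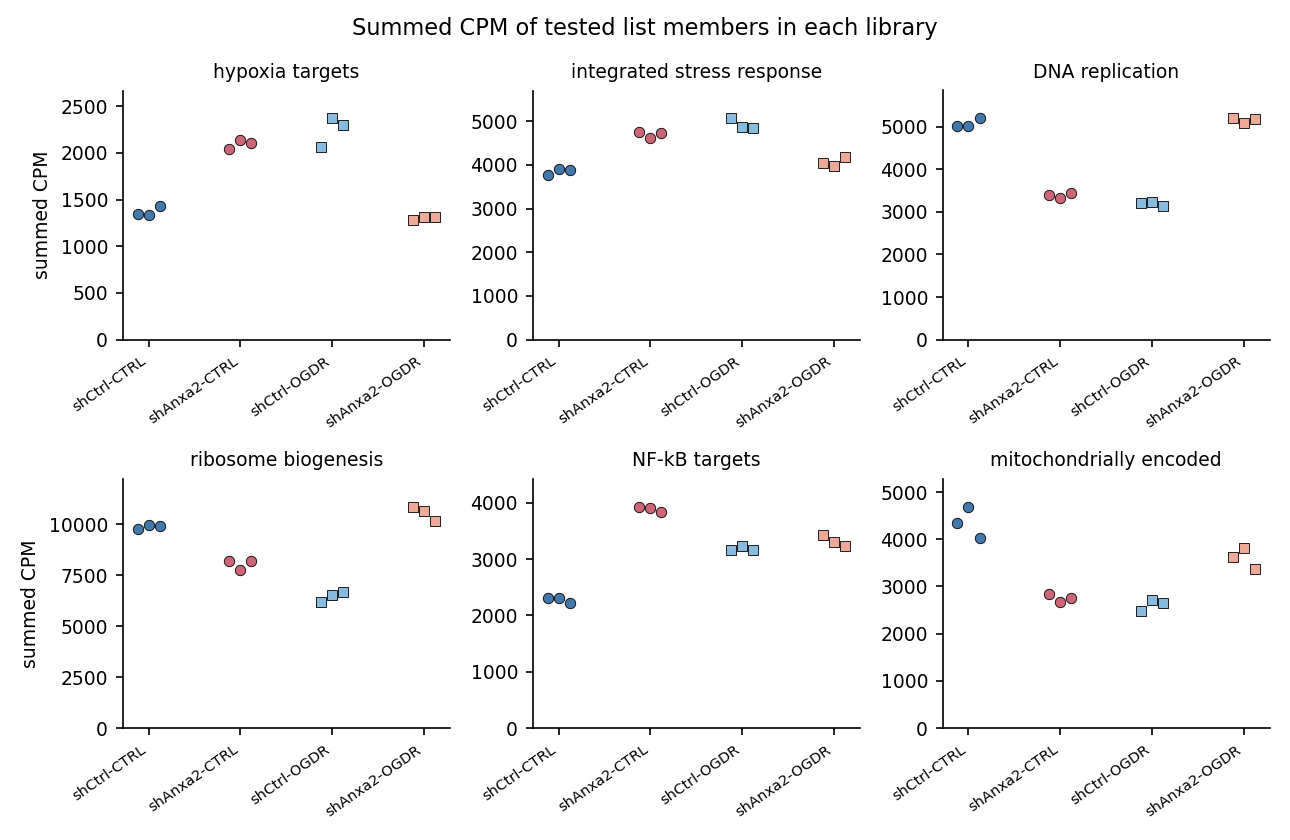
Summed CPM of the tested members of 6 gene lists (y axis, from 0) in each of the 12 libraries, by group (x axis), with 1 point per library, circles for untreated and squares for OGD/R groups. For hypoxia targets the shAnxa2-CTRL libraries sit at 2042 to 2136 CPM, next to shCtrl-OGDR and above shCtrl-CTRL, and for DNA replication and mitochondrially encoded genes the order is turned over. For NF-kB targets the shAnxa2-CTRL libraries lie above all other groups, and shCtrl-CTRL lies below all others.

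Anxa2 itself (ENSMUSG00000032231, mm39, chromosome 9, 69360902 to 69399077, plus strand) was at 164.5, 173.9 and 176.7 CPM in the shCtrl-CTRL libraries and at 34.96, 44.37 and 41.79 CPM in the shAnxa2-CTRL libraries. The groups did not overlap, and the knockdown libraries kept 23.5% of the control mean. The log2 fold change was −2.09 with a standard error (SE) of 0.0714, with an adjusted p of 3.96e-17 in the quasi-likelihood test of edgeR. A two-sided exact permutation test over the 3 and 3 libraries gave p = 0.1, the smallest it allows. In the OGD/R groups Anxa2 was at 250.9 to 294.6 CPM in shCtrl and 18.22 to 20.62 CPM in shAnxa2, and averaged over both treatments the log2 line difference was −2.96. The Anxa2 level thus went with the line named in the titles in all 12 libraries.

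Of the 11626 tested genes, 6882 (59.2%) differed between the untreated lines at an adjusted p under 0.05, with 3427 (29.5%) higher and 3455 (29.7%) lower in shAnxa2-CTRL. Most differences were small, since the median absolute log2 fold change was 0.264 over all tested genes and 0.385 over those called. At least 2-fold differences were more often increases, with 447 genes (3.84%) higher and 213 (1.83%) lower, but not in the average over both treatments, with 113 higher and 140 lower. The 3 and 3 libraries did not overlap for 7393 genes (63.6%), so the counts of list members below are read against these shares. In the comparison after OGD/R 33.8% of genes were higher and 34.2% lower in shAnxa2, and in the average over both treatments 27.9% were higher and 25.1% lower.

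**Figure D2:**
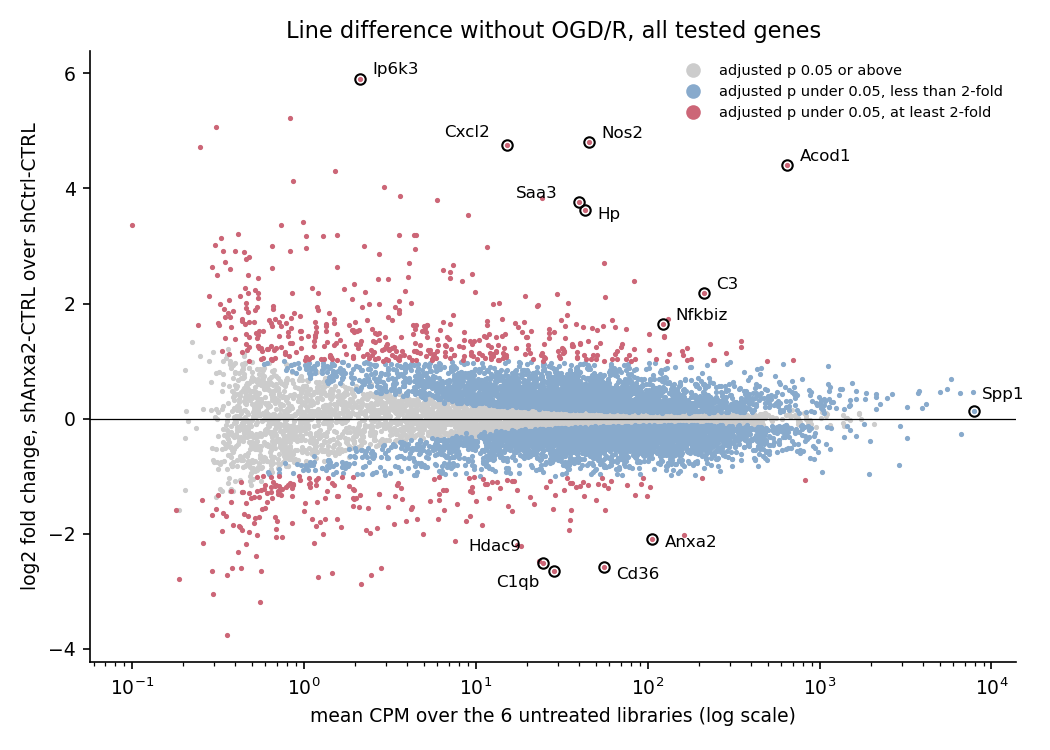
Log2 fold change of shAnxa2-CTRL over shCtrl-CTRL (y axis) against the mean CPM of the 6 untreated libraries (x axis, log scale), with 1 point per tested gene, coloured by the edgeR call. Nos2 at 4.80, Acod1 at 4.40 and Cxcl2 at 4.75 stand highest among the circled genes above 10 CPM, and C1qb, Cd36, Hdac9 and Anxa2 lie between −2.64 and −2.09.

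Targets of NF-kB had the highest median of the 40 lists in the untreated comparison. Of 40 tested NF-kB targets, 32 were higher and 1 was lower in shAnxa2-CTRL, 15 of the increases were at least 2-fold, and the median log2 fold change was 0.82 against 0.0007 over all tested genes. Nos2, the inducible nitric oxide synthase, was at 2.381, 3.628 and 3.308 CPM in shCtrl-CTRL and at 93.79, 87.59 and 81.55 CPM in shAnxa2-CTRL. Every knockdown library was far above every control library (log2 fold change 4.80, SE 0.126, adjusted p 4.18e-19 in edgeR). Cxcl2, a neutrophil-attracting chemokine, was at 1.42, 0.9895 and 0.8822 CPM in shCtrl-CTRL and at 30.56, 30.08 and 27.53 CPM in shAnxa2-CTRL (4.75, SE 0.166, adjusted p 5.22e-17 in edgeR). Acod1, which makes itaconate in activated macrophages and is not in that list, had the smallest adjusted p of all genes, with 62.41, 60.69 and 53.37 CPM against 1222, 1255 and 1243 CPM (4.40, SE 0.086, adjusted p 7.9e-22 in edgeR). For all 3 genes the knockdown libraries lay above the control libraries by more than the range within either group.

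To show what the regulatory sequence of such genes holds, the windows from 250 bases before to 50 bases after the RefSeq start are given for Cxcl2, Acod1 and C1qb, the first pair as strongly higher genes and C1qb as a strongly lower one. Capitals mark matches to the NF-kB letters (GGG, any 2 bases, TT, any base, CC), searched on both strands. The sequences are from RefSeq (GRCm38.p6), 5′ to 3′ on the strand of the gene, at chr5:90903649-90903948 (plus strand), chr14:103046762-103047061 (plus strand) and chr4:136886151-136886450 (minus strand).
Cxcl2: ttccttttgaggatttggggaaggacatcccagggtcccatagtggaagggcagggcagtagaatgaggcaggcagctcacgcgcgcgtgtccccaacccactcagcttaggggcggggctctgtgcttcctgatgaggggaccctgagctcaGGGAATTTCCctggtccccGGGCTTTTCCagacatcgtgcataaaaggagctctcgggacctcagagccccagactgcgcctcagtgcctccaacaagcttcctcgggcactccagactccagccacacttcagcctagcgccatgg
Acod1: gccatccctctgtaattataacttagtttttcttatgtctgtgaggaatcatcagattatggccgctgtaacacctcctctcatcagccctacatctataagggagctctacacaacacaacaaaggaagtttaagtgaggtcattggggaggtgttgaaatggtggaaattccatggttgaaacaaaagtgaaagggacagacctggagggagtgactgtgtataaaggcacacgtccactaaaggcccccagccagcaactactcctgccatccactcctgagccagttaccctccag
C1qb: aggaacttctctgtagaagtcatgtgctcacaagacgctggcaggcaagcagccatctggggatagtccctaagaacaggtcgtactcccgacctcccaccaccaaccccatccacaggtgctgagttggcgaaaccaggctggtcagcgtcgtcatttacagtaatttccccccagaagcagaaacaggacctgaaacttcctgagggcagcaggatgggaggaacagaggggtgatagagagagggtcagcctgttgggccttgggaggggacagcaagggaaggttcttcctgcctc
The Cxcl2 window held 2 matches, which began 97 and 78 bases before the start, and the Acod1 and C1qb windows held none. Windows were found for 353 of the 447 genes that were at least 2-fold higher and for 154 of the 213 that were at least 2-fold lower. The NF-kB letters were in 37 of 458 windows (8.08%) of the higher genes, 5.50% of the windows of the lower genes, 5.52% of those of all tested genes and 4.79% of all windows in the table. The letters ACGTG of the hypoxia response element were in 22.9% of the windows of the higher genes and 25.6% of those of all tested genes. For the ATF4 (TGATGNAA), antioxidant (TGACNNNGC), interferon (GAAA, any 2 bases, GAAA) and cell cycle (TTTGAAA) letters the shares were 4.37%, 13.1%, 3.49% and 3.93% of the windows of the higher genes, and 2.34%, 14.3%, 3.06% and 4.33% of those of all tested genes. The shares count windows and not genes, and a gene with several windows entered more than once. These are counts of letters in short windows and were not tested.

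Members of the NF-kB system itself were more often higher than lower. Of 19 tested subunits and inhibitors 10 were higher, 4 of them at least 2-fold, and 2 were lower. This list overlaps that of the targets and is not separate evidence. Relb, Nfkb2, Nfkbia, Nfkbie, Nfkbiz, Tnfaip3, Tnip1 and Tnip3, all called higher, are in both. The 7 members that did not pass the test included Rela (0.04), Rel (0.08), Nfkb1 (0.05), Ikbkb (−0.03) and Chuk (−0.09). Nfkbiz, a nuclear IkB protein, was at 61.45, 60.18 and 57.71 CPM in shCtrl-CTRL and at 187.8, 179.5 and 189.9 CPM in shAnxa2-CTRL (log2 fold change 1.64, SE 0.0516, adjusted p 1e-17 in edgeR). Ikbke, a kinase of the pathway, had a log2 fold change of 1.48 and Tnip1, which restrains signalling, one of 0.94. Among the targets, Ier3, an immediate early gene, was higher by 2.11 on the log2 scale and the acute-phase protein Saa3 by 3.76. Hp, haptoglobin, which is not in that list, was higher by 3.62. Cd83, an activation marker, was the single NF-kB target called lower (−0.23), and its call was lost without shCtrl-CTRL replicate 1 (−0.19, adjusted p 0.088 in edgeR) or without shAnxa2-CTRL replicate 3 (−0.16, adjusted p 0.135).

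Several classical mediators differed by less than 2-fold. Tnf, a cytokine that starts inflammation, was at 44.49, 52.48 and 46.10 CPM in shCtrl-CTRL and at 81.67, 80.61 and 88.62 CPM in shAnxa2-CTRL (log2 fold change 0.81, adjusted p 2.5e-09 in edgeR). Il1b, which was scarce, had a log2 fold change of 0.86 (SE 0.204), and the chemokine Ccl4 one of 0.70. Ptgs2, the prostaglandin-synthesizing enzyme COX2, was higher by 0.56. Of 18 tested cytokines 10 were higher and 2 lower, the lower ones being Igf1 (−0.82), a trophic factor of microglia, and Tgfb1 (−0.60). The 13 tested chemokines were split evenly without OGD/R, with 4 called in each direction.

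After OGD/R, in libraries not used above, the same inflammatory genes split. Of the 40 NF-kB targets 16 were higher and 17 lower, with a median of −0.05. Of the 19 subunits and inhibitors 6 were higher and 10 lower, of the 18 cytokines 11 and 6, and of the 13 chemokines 7 and 1. Tnf, Il1b, Ccl4 and Ptgs2 were again higher in shAnxa2, by 1.92, 2.39, 0.81 and 0.71 on the log2 scale, and so was Cxcl2, by 2.36. Nos2 was lower by 2.87 on that scale, Nfkbiz lower by 0.81 and Ikbke lower by 0.78 (all adjusted p under 0.05 in edgeR), and Acod1 and Saa3 did not pass the test, with 0.12 and 0.15. Averaged over both treatments, 30 of the 40 NF-kB targets were higher and 3 lower in shAnxa2, with a median of 0.49, below the medians of cytokines (0.65, 13 higher and 5 lower) and chemokines (0.54, 8 higher and 3 lower). Of the subunits and inhibitors 7 were higher and 3 lower. Nos2 had a log2 line difference of 0.97, Cxcl2 of 3.56, Acod1 of 2.26 and Tnf of 1.36.

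**Figure D3:**
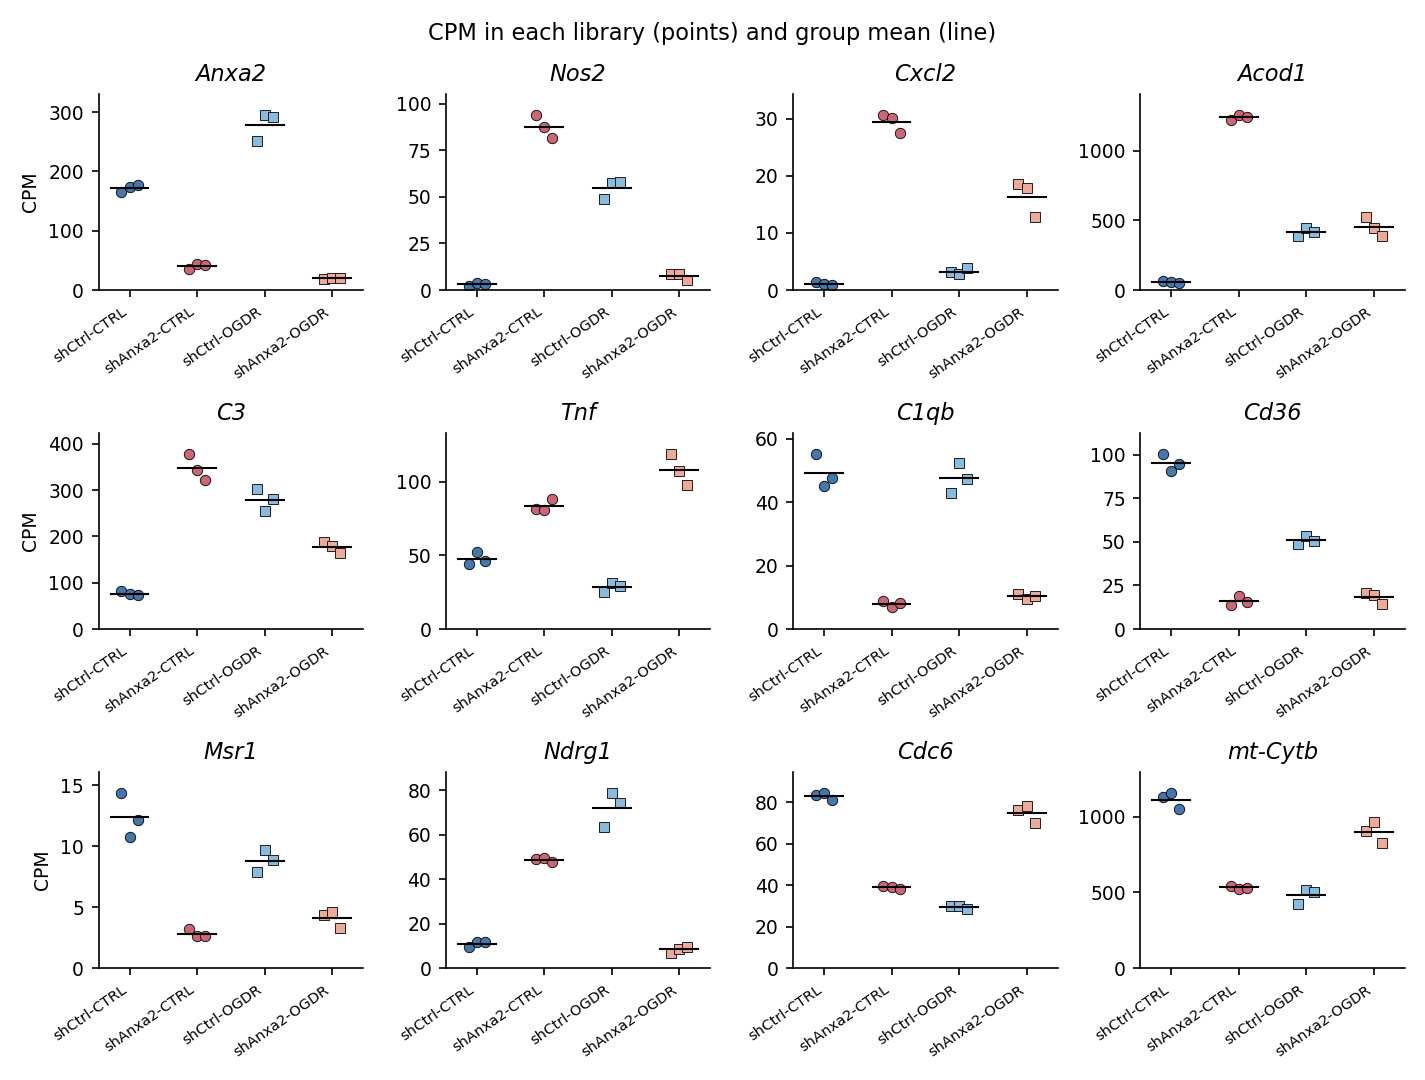
CPM (y axis, from 0) of 12 genes in each of the 12 libraries by group (x axis), with 1 point per library and a line at the group mean. Anxa2, C1qb, Cd36 and Msr1 are lower in both shAnxa2 groups than in both shCtrl groups, while Nos2, Ndrg1, Cdc6 and mt-Cytb have the line order turned over between the untreated and OGD/R groups.

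Complement genes and some scavenger receptors were among the lower genes. The complement list had the lowest median of the 40 lists (−0.96), with 9 of 15 tested members lower, 7 of them at least 2-fold, and 2 higher. C1qb, a chain of the C1q molecule that microglia use to tag synapses and debris, was at 55.15, 45.19 and 47.79 CPM in shCtrl-CTRL and at 8.704, 6.882 and 8.103 CPM in shAnxa2-CTRL (log2 fold change −2.64, SE 0.101, adjusted p 3.21e-16 in edgeR). C1qc, another chain, was at 44.24, 36.32 and 38.85 CPM against 6.357, 7.508 and 7.627 CPM (−2.47, SE 0.102). The third chain, C1qa, was lower too but scarce, with 1.796, 1.869 and 2.757 CPM against 0.0489, 0.1925 and 0.6355 CPM. All 3 chains lay without overlap between groups. The log2 fold change of C1qa was −2.76, and −4.09 without shAnxa2-CTRL replicate 3. Both chemoattractant receptors for C5a were lower, with C5ar1 at −1.76 and C5ar2 at −1.53, as was C3ar1 at −0.96. The 2 higher members were C1ra (0.96) and C3, the central component, which was at 81.26, 75.75 and 72.53 CPM in shCtrl-CTRL and 377.1, 343.4 and 321.1 CPM in shAnxa2-CTRL (2.18, SE 0.0682, adjusted p 9.77e-18 in edgeR).

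After OGD/R, C1qb, C1qc and C1qa were again lower in shAnxa2, by 2.21, 1.62 and 1.36 on the log2 scale, C3ar1 and C3 were lower by 0.41 and 0.66, and C5ar1 was higher by 0.49. The line difference averaged over both treatments was −2.43 for C1qb and −2.04 for C1qc, and 8 of the 15 complement genes were lower and 3 higher.

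Of 22 tested phagocytic and scavenger receptors 11 were lower and 7 higher, with 2 at least 2-fold in each direction and a median of −0.17. Fcer1g, a member of this list, had a mean of 279.7 CPM in shCtrl-CTRL and 406.0 CPM in shAnxa2-CTRL. Cd36, the receptor for oxidized lipids and fatty acids, was at 100.2, 90.52 and 94.77 CPM in shCtrl-CTRL and at 13.74, 18.87 and 15.45 CPM in shAnxa2-CTRL (log2 fold change −2.57, SE 0.0953, adjusted p 1.68e-16 in edgeR). Msr1, the class A scavenger receptor, was lower by 2.13 on the log2 scale and Mrc1, the mannose receptor CD206, by 0.98. After OGD/R these were lower again, by 1.49 for Cd36, 1.10 for Msr1 and 0.97 for Mrc1, and the average over both treatments was −2.03, −1.62 and −0.97. Of the receptor list 7 were higher and 12 lower after OGD/R, and 4 and 13 in the average. The groups of Cd36 did not overlap in either treatment. Of 16 tested homeostatic microglia genes 8 were lower and 3 higher, among them Csf1r at −0.55. After OGD/R 8 were lower and 5 higher, Csf1r being slightly higher (0.10), and in the average 8 were lower and 3 higher. P2rx7, the ATP-gated channel upstream of the inflammasome, was at 1337, 1381 and 1366 CPM in shCtrl-CTRL and at 744.4, 717.6 and 692.1 CPM in shAnxa2-CTRL (−0.92, adjusted p 5.63e-15 in edgeR), and was lower after OGD/R by 1.31 and in the average by 1.11.

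Antigen presentation genes were higher in the untreated knockdown line. Of 15 tested genes of MHC class I and peptide loading 11 were higher and 1 lower, with a median of 0.66. H2-D1 was at 624.6, 572.0 and 614.1 CPM in shCtrl-CTRL and at 946.5, 972.2 and 1002 CPM in shAnxa2-CTRL (log2 fold change 0.69), and H2-Q4 had a log2 fold change of 1.59. Reads of these close relatives may be shared between genes, so the split among them is uncertain. Erap1, the peptidase that trims peptides for class I, was the one called lower (−0.64). Of 33 tested interferon-stimulated genes 13 were higher and 3 lower, with a median of 0.22. After OGD/R the interferon list had 4 higher and 13 lower, and in the average 10 and 7. After OGD/R the class I list had a median of −0.19, with 3 higher and 7 lower, and averaged over both treatments 10 were higher and 3 lower.

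Genes of hypoxia and of the integrated stress response were higher. Of 23 tested hypoxia targets 16 were higher and 1 was lower, with a median of 0.60. Ndrg1, a hypoxia-induced stress protein, was at 9.274, 11.73 and 11.54 CPM in shCtrl-CTRL and at 49.00, 49.71 and 47.75 CPM in shAnxa2-CTRL (log2 fold change 2.16, SE 0.0962, adjusted p 4.59e-15 in edgeR). Bnip3, which acts in mitophagy, was higher by 1.44. Of 18 tested genes of glycolysis and lactate 14 were higher and 1 lower, with Gapdh at 0.52 and the lactate transporter Slc16a1 at −0.83. Of 23 tested integrated stress response genes 16 were higher and 2 lower, with Slc7a11, the cystine transporter, at 1.80 and Trib3, a pseudokinase induced by this response, at 1.15.

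The same lists had the opposite sign after OGD/R. The median was −0.59 for hypoxia targets, with 4 higher and 16 lower, −0.25 for glycolysis and −0.60 for the integrated stress response. Ndrg1 was lower by 3.10 on the log2 scale and Bnip3 by 2.44. Averaged over both treatments the hypoxia list had a median of −0.07, with 3 higher and 10 lower, and Ndrg1 and Bnip3 had line differences of −0.47 and −0.50. The glycolysis list then had 8 higher and 3 lower and the integrated stress response list 8 higher and 9 lower, and Trib3 no longer passed the test (adjusted p 0.966 in edgeR). As labelled, the higher level of this list in shAnxa2-CTRL thus depended on the treatment groups compared, and a difference between lines and a difference in the state of the cells cannot be told apart from the untreated libraries alone.

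**Figure D4:**
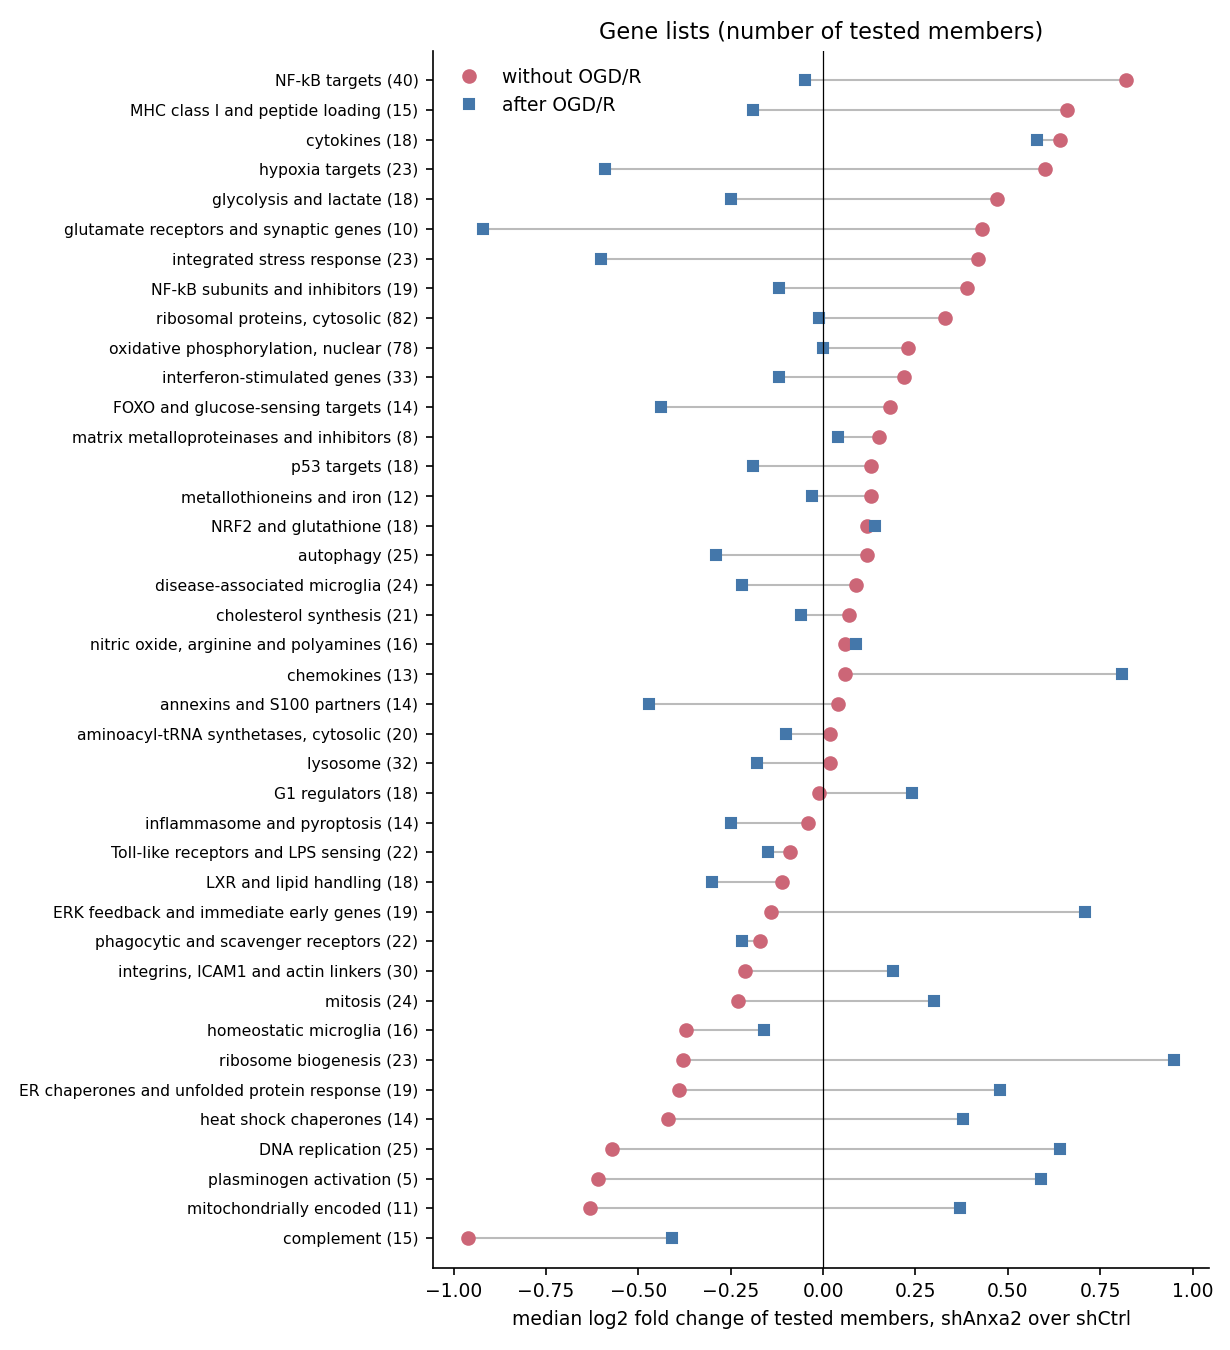
Median log2 fold change of shAnxa2 over shCtrl (x axis) for the tested members of each of the 40 gene lists (y axis, with the number of tested members), without OGD/R (circles) and after OGD/R (squares). Complement lies lowest without OGD/R at −0.96 and is at −0.41 after it, cytokines are at 0.64 and 0.58, and hypoxia targets, DNA replication and ribosome biogenesis change sign.

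Genes of DNA replication, mitosis and ribosome biogenesis were mostly lower in the untreated knockdown line. Of 25 tested DNA replication genes 21 were lower and the other 4 did not pass the test, with a median of −0.57. Cdc6, which loads the replicative helicase, was at 83.68, 84.29 and 81.13 CPM in shCtrl-CTRL and at 39.61, 39.32 and 38.33 CPM in shAnxa2-CTRL (log2 fold change −1.09, SE 0.0553, adjusted p 4.64e-14 in edgeR). Uhrf1, which maintains DNA methylation at replication, was lower by 0.90. Of 24 mitosis genes 17 were lower and 2 higher, with the proliferation marker Mki67 at −0.56. In ribosome biogenesis 19 of 23 were lower and 2 higher, with Utp20 at −0.70. The 18 tested G1 regulators were split, with 7 higher and 7 lower. By contrast the cytosolic ribosomal proteins were higher, 59 of 82 against 2 lower, with a median of 0.33 and Rplp0 at 0.44. Since these genes have many processed copies in the genome, part of their reads may be placed on or lost to copies.

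Chaperones were lower as well. Of 19 genes of the endoplasmic reticulum chaperones and unfolded protein response 16 were lower and 2 higher, with Creld2 at −0.84. Of 14 heat shock chaperones 11 were lower and 1 higher, with the constitutive chaperone Hspa8 at 3563, 3642 and 3830 CPM in shCtrl-CTRL against 2155, 2031 and 2112 CPM in shAnxa2-CTRL (−0.81).

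After OGD/R each of these 5 lists of lower genes had a positive median, of 0.64 for DNA replication with 24 of 25 higher, 0.30 for mitosis, 0.95 for ribosome biogenesis with 23 of 23 higher, 0.48 for the endoplasmic reticulum and 0.38 for heat shock. Averaged over both treatments the DNA replication list had 13 higher and 3 lower members and ribosome biogenesis 21 higher and 1 lower. Mitosis had 8 and 7, the endoplasmic reticulum list 8 and 3, heat shock 6 and 1, and the cytosolic ribosomal proteins 57 and 7, which after OGD/R had 25 and 20. Ccnd2, a D-type cyclin, was unlike the replication genes in being higher in shAnxa2 in both treatments. It was at 78.75, 86.82 and 85.32 CPM in shCtrl-CTRL and at 174.6, 187.4 and 183.2 CPM in shAnxa2-CTRL (1.12), and its log2 difference after OGD/R was 3.10.

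Mitochondrial transcripts split by genome. Of 11 tested mitochondrially encoded genes 9 were lower and the other 2 did not pass the test, with a median of −0.63, while of 78 nuclear genes of oxidative phosphorylation 50 were higher and 1 lower, with a median of 0.23. mt-Cytb, a subunit of complex III, was at 1131, 1156 and 1055 CPM in shCtrl-CTRL and at 545.0, 523.4 and 532.7 CPM in shAnxa2-CTRL (log2 fold change −1.06, SE 0.0626, adjusted p 7.48e-13 in edgeR). The mitochondrially encoded share of all counts was 0.402% to 0.472% in shCtrl-CTRL and 0.272% to 0.286% in shAnxa2-CTRL, and 0.251% to 0.272% in shCtrl-OGDR and 0.331% to 0.380% in shAnxa2-OGDR. This share moved with the stress and replication lists above, and its part in them was not tested. Averaged over both treatments 3 of the 11 were lower and mt-Cytb was not (−0.08, adjusted p 0.127 in edgeR), while 43 of the 78 nuclear genes were higher and 4 lower.

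Genes close to the known roles of annexin A2 were mixed. Of 14 tested annexins and S100 partners 5 were higher and 4 lower. Ahnak, a large scaffold that binds the annexin A2 complex, was at 236.2, 205.7 and 189.7 CPM in shCtrl-CTRL and at 151.4, 146.7 and 151.9 CPM in shAnxa2-CTRL (log2 fold change −0.49), and lower after OGD/R by 1.57. Anxa4 was higher by 0.60, Anxa5 had 0.03 and Anxa1 −0.12, and neither Anxa5 nor Anxa1 passed the test (adjusted p 0.619 and 0.176 in edgeR). Without shAnxa2-CTRL replicate 3, Anxa1 passed it, at −0.19 (adjusted p 0.0429). In plasminogen activation, the urokinase gene Plau was lower by 0.71 on the log2 scale and its receptor Plaur by 0.61. After OGD/R Plau and Plaur were higher, by 0.57 and 1.27. Averaged over both treatments 8 annexins and partners were lower and 3 higher, Ahnak was lower by 1.03, Plau did not pass the test (−0.07, adjusted p 0.222 in edgeR) and Plaur was higher (0.33).

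Of 30 tested genes of integrins and actin linkers 16 were lower and 10 higher. Itga6, a laminin receptor subunit, was lower in both treatments (−1.35 and −1.03), and Itgb3, scarce in shCtrl-CTRL at 0.301 CPM, was higher by 3.19 without OGD/R. Immediate early genes and feedback regulators of ERK signalling also went both ways, with 10 of 19 lower and 5 higher. Fos was lower by 1.78 and Egr2 by 1.77, and the ETS factor Etv4 was higher by 1.79. Etv4 and Egr2 kept their direction after OGD/R, with 1.73 and −0.97, and Fos did not, with 1.38. Both lists turned over after OGD/R, with 16 higher and 8 lower for integrins and actin linkers and 13 higher and 4 lower for the ERK list. In the average they had 11 higher and 8 lower, and 11 higher and 2 lower, and Fos did not pass the test (−0.20, adjusted p 0.117 in edgeR).

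Beyond the lists, the largest increases above 1 CPM were those of Ip6k3, an inositol hexakisphosphate kinase (5.91), Sult1c2, a sulfotransferase (4.30), Aqp3, a water and glycerol channel (4.03), Cyp11a1, the first enzyme of steroid synthesis (3.87), Ntng2 (3.83) and Trank1 (3.81). Ip6k3 was at 0, 0.147 and 0.0368 CPM in shCtrl-CTRL and at 4.55, 4.57 and 3.38 CPM in shAnxa2-CTRL. In the control libraries it lay near a few counts, so its fitted fold is imprecise (SE 0.386), and it was 7.37 without shCtrl-CTRL replicate 2. In the average over both treatments neither Ip6k3 (0.44, adjusted p 0.388 in edgeR) nor Aqp3 (0.56, adjusted p 0.0873) passed the test. The largest decreases beside the complement genes and Cd36 were those of Dmpk, a kinase (−2.88), Pde3b, a cyclic nucleotide phosphodiesterase (−2.71), Nlrp10 (−2.68), the chemokine receptor Cxcr3 (−2.59), the histone deacetylase Hdac9 (−2.51) and the adaptor Dok2 (−2.22). After OGD/R Ip6k3, Aqp3, Ntng2, Dmpk, Cxcr3 and Dok2 had the opposite sign, and Pde3b, Hdac9 and Nlrp10 were lower again, by 2.50, 1.52 and 0.98 on the log2 scale.

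The comparison after OGD/R, which shares no library, gave a second value of the line difference for each gene. Of the 3427 genes higher in shAnxa2-CTRL, 536 (15.6%) were higher and 1945 (56.8%) lower in shAnxa2-OGDR. Of the 3455 lower genes, 693 (20.1%) were lower and 1947 (56.4%) higher. The test of the difference between the line differences passed for 8136 genes (70.0%). Among the at least 2-fold differences, increases turned over more often than they persisted, with 69 of 447 (15.4%) higher again and 251 (56.2%) lower. Decreases did not, with 76 of 213 (35.7%) lower again and 60 (28.2%) higher. Of all tested genes, 34.2% were lower and 33.8% higher in shAnxa2-OGDR, so the share lower again was near that of all genes. After OGD/R the median log2 fold change was −0.04 for these decreases and −0.64 for the increases.

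At least 2-fold differences in the same direction in both treatments were found for 32 higher and 52 lower genes, a rule set after the values were seen. Among the higher were Wnt10a, a Wnt ligand (3.20 without and 2.79 after OGD/R), Cxcl2, Csf3, the granulocyte growth factor (2.89 and 2.95, both at under 1.3 CPM, the first being 3.63 without shCtrl-CTRL replicate 3), Etv4, Ccnd2 and Ets2 (1.03 and 1.31). Wnt10a was at 1.003, 1.026 and 0.6249 CPM in shCtrl-CTRL and at 6.748, 8.807 and 8.779 CPM in shAnxa2-CTRL. Among the lower were Anxa2, the 3 C1q chains, Cd36, Msr1, Hdac9, Pde3b, Itga6 and Maf, a transcription factor of resident macrophages. Maf was at 40.44, 43.83 and 42.20 CPM in shCtrl-CTRL and at 14.96, 13.96 and 13.66 CPM in shAnxa2-CTRL (−1.57, SE 0.0794, adjusted p 4.19e-14 in edgeR), and lower after OGD/R by 2.43. The groups of Maf did not overlap in either treatment.

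The genes that the study assayed by RT-qPCR in these cells were chosen by the study, so their directions are not independent evidence. Beside Anxa2, Nos2, C3, Tnf, Il1b, Ptgs2, Mrc1 and Anxa1, given above, Spp1 was higher by 0.13 on the log2 scale, Msn by 0.27 and Ctss by 0.39. Rps6ka5 was higher by 0.20 (adjusted p 0.0184 in edgeR), and its adjusted p was 0.0528 to 0.0829 without shCtrl-CTRL replicate 1, shCtrl-CTRL replicate 2 or shAnxa2-CTRL replicate 2. Pecam1 had 0.57 (SE 0.489) and did not pass the test. Serpina3n, Fn1, Fga, Il6 and Arg1 did not reach the minimum level. The count of Il6 was 8, 5 and 2 in the control line and 7, 9 and 10 in the knockdown line, and that of Arg1 was 4, 10 and 2 against 1, 3 and 1. None of these 5 genes was tested.

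Chromosomes differed in their medians. Genes of chromosome 7 had a median log2 fold change of −0.174, with 394 of 895 (44.0%) lower and 136 (15.2%) higher, against 29.7% and 29.5% of all tested genes. After OGD/R the chromosome 7 median was −0.233, with 441 (49.3%) lower and 169 (18.9%) higher, and 131 genes were lower in both treatments against 2 higher in both. In each library, the median deviation of chromosome 7 genes from their own mean over the 12 libraries was 0.070 to 0.143 in the 6 shCtrl libraries and −0.109 to −0.073 in the 6 shAnxa2 libraries. Shown the same way, the 6 shCtrl and the 6 shAnxa2 libraries did not overlap for 9 of the 20 nuclear chromosomes, chromosome 7 among them. Chromosome 8, for instance, was at −0.047 to −0.035 in shCtrl and at 0.027 to 0.078 in shAnxa2. All 10 windows of 15 Mb along chromosome 7 (mm39) had a median below 0 in both treatments, of −0.232 to −0.093 without and −0.380 to −0.106 after OGD/R. These values follow the line, and since each line is 1 population their relation to the knockdown cannot be told apart from a difference between the lines. Dmpk, Pde3b, Nlrp10, Plaur and Mki67 lie on chromosome 7, as do the higher genes Saa3 and Bnip3.

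**Figure D5:**
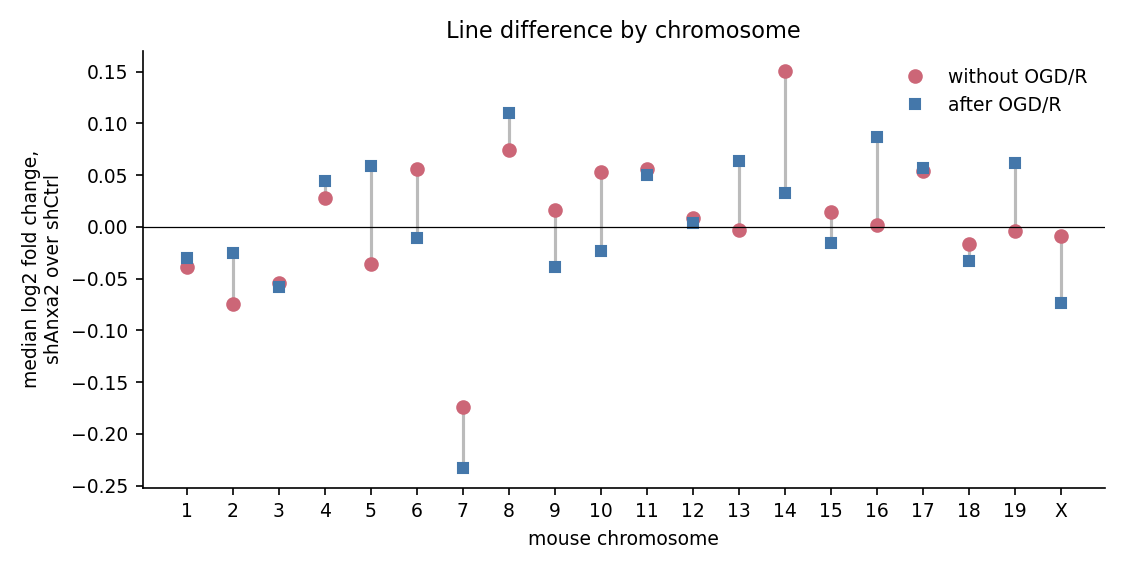
Median log2 fold change of shAnxa2 over shCtrl (y axis) of the tested genes of each chromosome (x axis), without OGD/R (circles) and after OGD/R (squares), with the mitochondrial genome left out. Chromosome 7 lies lowest in both comparisons, at −0.174 and −0.233, and chromosome 14 is highest without OGD/R only.

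Chromosome 14 genes had a median of 0.151, with 181 of 383 (47.3%) higher and 14.6% lower, and 0.033 after OGD/R. On it 47 genes were higher in both treatments and 4 lower in both, and its median deviation was −0.090 to −0.023 in shCtrl and 0.005 to 0.091 in shAnxa2 libraries. The other nuclear chromosomes lay between −0.075 and 0.074 in the untreated comparison. With genes put into 4 bins of equal size by mean CPM, the median went from 0.104 in the lowest bin to −0.085 in the highest, where 45.4% of genes were lower and 27.2% higher, while the median SE went from 0.226 to 0.051. The 2-fold differences came mostly from the lowest bin, with 298 of the 447 increases and 154 of the 213 decreases, so many of them rest on few counts. In 4 such bins by gene length, the medians lay between −0.028 and 0.045.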

How the data were processed

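RNA was sequenced from BV2 cells in 4 groups of 3 libraries. The authors deposited whole-number counts of reads per gene, without normalization, and a further 12 columns of scaled counts that were not used. HISAT2 2.0.4 and mm39 are named in the submitters' processing notes, while the study's methods, written for brain tissue, name another aligner. The named library kit (NEBNext Ultra) does not mark strand, so reads of overlapping genes cannot be told apart by strand. Replicates are described as biological replicates, and no label gives a batch. Replicates differed by more than counting error (chi-square per gene 4.00 to 13.28), so none was counted as a repeat sequencing of another. That cannot show whether they came from separate cultures, and the study's methods also mention technical replicates within each biological replicate. A further 10208 genes under the minimum were not tested.

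edgeR 4.0.16 (R 4.3.3) was run with TMM factors and 1 quasi-likelihood model of 4 groups over the 12 libraries, with Benjamini-Hochberg adjustment over 11626 genes. Calls had an adjusted p under 0.05. The SE is the log2 fold change divided by the square root of F. CPM values are TMM-scaled, and the common biological coefficient of variation was 5.35%. Distances and library medians used log2(CPM + 0.1). Replicate numbers did not pair the libraries. Alternatives were RLE and upper-quartile factors, 2 other filters, DESeq2 1.42.0, limma voom 3.58.1, the 6 libraries alone, a replicate block, each replicate left out and another fold limit, and, added after the data were seen, the line difference averaged over both treatments.

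The genes, lists, motifs and comparisons were chosen with earlier results of these data known. Named genes were Anxa2, the 10 largest differences per direction at 1 CPM or more without overlap, the RT-qPCR genes, the 2 most changed called members per direction and the most abundant member of each list, and the 5 smallest p-values per direction. Wnt10a, Ets2, Maf, C5ar1, C5ar2, C3ar1, C1ra, Tgfb1, Tmem119, P2ry12, Spi1 and Kdr were named outside this rule, after their values were seen. No set test was run. Some genes and the shRNA sequence are not reported here.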

Additional observations from a re-analysis of the deposited data

Results flagged for a closer look

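The line difference itself differed between the untreated and the OGD/R libraries for 8136 genes in edgeR (70.0% of those tested), so most of the named genes differ by this test as well. Values are the log2 line difference without OGD/R minus that after OGD/R, each with an adjusted p under 0.05 for that difference. Among the named genes, 31 were called in opposite directions in the 2 treatments, 24 in the same direction and 12 in 1 treatment only or in none.

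Of the genes higher without and lower after OGD/R, inflammatory and acute-phase genes had 7.68 for Nos2, 4.03 for Hp and 2.44 for Nfkbiz. They also had 2.26 for Ikbke, 2.84 for C3 and 0.50 for Spp1. Hypoxia and stress response genes had 5.26 for Ndrg1, 3.87 for Bnip3, 0.81 for Gapdh, 2.29 for Trib3 and 2.75 for Slc7a11. The remaining ones had 10.94 for Ip6k3, 6.95 for Aqp3, 5.16 for Ntng2, 1.51 for Anxa4, 0.47 for Msn and 0.67 for Rps6ka5. Of the genes lower without and higher after OGD/R, growth, chaperone, mitochondrial and lactate transport genes had −2.43 for Cdc6, −2.06 for Uhrf1 and −1.85 for Utp20. Further values among them were −2.07 for Creld2, −1.75 for Hspa8, −1.96 for mt-Cytb and −1.95 for Slc16a1. Receptors, signalling and protease genes of that kind had −4.47 for Dmpk, −3.46 for Cxcr3, −3.30 for Dok2, −0.66 for Csf1r, −3.16 for Fos, −1.28 for Plau and −1.88 for Plaur.

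Genes called in the same direction in both treatments differed in size. For the higher ones the difference was 2.39 for Cxcl2, 3.09 for Cyp11a1, 0.78 for Tnip1 and 1.39 for Ier3 in favour of the untreated libraries, and −1.11 for Tnf, −1.53 for Il1b, −1.99 for Ccnd2 and −0.27 for Ets2 in favour of the OGD/R libraries. For the lower ones it was 1.74 for Anxa2, 1.23 for Cd83, 0.40 for Igf1, 1.08 for Ahnak, 0.38 for P2rx7 and 0.85 for Maf, which were lower by more after OGD/R. It was −1.40 for C1qa, −0.43 for C1qb, −0.85 for C1qc, −1.08 for Cd36, −1.03 for Msr1 and −1.70 for Nlrp10, and −0.99 for Hdac9, −0.34 for Mki67, −0.80 for Egr2 and −0.32 for Itga6, which were lower by more without OGD/R.

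Genes called in 1 treatment or in none had 4.28 for Acod1, 3.61 for Saa3, 3.72 for Sult1c2, 4.08 for Trank1 and 3.87 for Itgb3, while antigen presentation and other genes had 1.78 for H2-Q4, 0.71 for H2-D1, −0.64 for Erap1, 0.39 for Rplp0, 0.74 for Anxa1, 0.67 for Anxa5 and 0.43 for Ctss.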

How the results depend on the processing

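Anxa2 and the counts of genes called higher or lower stayed within 1.5 times, and Anxa2 stayed lower, under other scaling factors, 2 other filters, DESeq2, limma voom and the 6 untreated libraries alone. The near balance of higher and lower genes turned over with RLE factors (3452 and 3411), upper-quartile factors (3816 and 3037), no filter (3571 and 3406), a minimum of 1 CPM (3401 and 3340), DESeq2 (3388 and 3371) and the 6 libraries alone (3465 and 3392). Leaving out each untreated library in turn gave 3141 to 3213 higher, 3197 to 3288 lower, 440 to 458 at least 2-fold higher, 205 to 223 at least 2-fold lower, 7833 to 7967 genes with a different line difference between treatments, and −2.16 to −2.0 for Anxa2. A fold change of at least 1.5 beside the adjusted p left 1136 higher and 675 lower genes, and a test against that fold left 512 and 261. With a replicate block 3420 genes were higher and 3452 lower, and Anxa2 was at −2.09. Replicate numbers did not pair the libraries (correlations of same-numbered deviations −0.038, −0.012 and 0.034).

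The average over both treatments, added after the data were seen, had 3244 higher and 2913 lower genes, but 113 at least 2-fold higher and 140 at least 2-fold lower. It turned 14 named genes over, with log2 line differences of −0.47 for Ndrg1, −0.50 for Bnip3, 0.15 for Slc16a1, 0.13 for Cdc6, 0.13 for Uhrf1, 0.19 for Creld2 and 0.07 for Hspa8. The others were 0.22 for Utp20, 0.33 for Plaur, −0.15 for Anxa4, −0.30 for Anxa5, −0.12 for Spp1, −0.06 for Pecam1 and −0.14 for Rps6ka5. Another 7 no longer passed the test, Ip6k3, Aqp3, Trib3, mt-Cytb, Fos, Plau and Msn. Anxa5 was at −0.01 to 0.06 when 1 untreated library was left out, lowest without shAnxa2-CTRL replicate 3. The cause was not tested. Counts near the minimum level limit the fold of scarce genes such as Ip6k3 and Csf3.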

Other observations

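Gene lists without a place above are read against the untreated comparison, in which 29.5% of all tested genes were higher and 29.7% lower. Of 25 tested autophagy genes 12 were higher and 2 lower in shAnxa2-CTRL, of 18 p53 targets 7 were higher and 2 lower, and of 14 FOXO and glucose-sensing targets 6 were higher and 2 lower. After OGD/R these lists had 3 higher and 16 lower, 4 and 9, and 1 and 11, in that order. Averaged over both treatments they had 2 higher and 5 lower, 6 and 6, and 1 and 9. The lists that follow are given for the untreated comparison only. Of 32 lysosome genes 13 were higher and 10 lower, and of 24 genes of disease-associated microglia 10 were higher and 8 lower. Of 21 cholesterol synthesis genes 8 were higher and 3 lower, and of 18 LXR and lipid-handling genes 4 were higher and 7 lower. Of 18 NRF2 and glutathione genes 8 were higher and 5 lower, and of 12 metallothionein and iron genes 4 were higher and 3 lower. Of 22 Toll-like receptor and LPS-sensing genes 7 were higher and 7 lower, and of 14 inflammasome genes 5 were higher and 4 lower. Of 16 genes of nitric oxide, arginine and polyamines 6 were higher and 5 lower, and of 20 aminoacyl-tRNA synthetases 5 were higher and 3 lower. Of 8 matrix metalloproteinases and inhibitors 4 were higher and 3 lower, and of 10 tested glutamate receptor and synaptic genes 5 were higher and 2 lower.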
